A study of Mus musculus with 12 samples.

Results

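A set of 10 genes of the feedback around cytokine receptors was followed in cultured mouse blood progenitors, namely Socs1, Socs2, Socs3, Cish, Pim1, Pim2, Pim3, Stat3, Stat5a and Stat5b. They were chosen by name, as the probe sets that the platform annotation gives to exactly 1 of these 10 symbols, which gave 25 of the 45101 probe sets on the array. Each gene was represented by its brightest probe set, so that 10 of 18193 genes are described here. The cells were KSL cells, sorted from marrow as lacking lineage markers and carrying c-Kit and Sca-1, a fraction that holds stem and early progenitor cells, from mice aged 2 to 4 months. Each of the 4 groups had 3 arrays: wild-type cells without and with TNF (tumour necrosis factor alpha, a cytokine of inflammation), and Fancc-/- cells without and with TNF. All cultures lasted 24 h in 10% serum with 4 growth factors: stem cell factor and IL-11, each at 10 ng/ml, IL-6 at 20 ng/ml, and the ligand of Flt3 at 50 ng/ml. TNF was used at 10 ng/ml. The untreated cells were therefore also under cytokine stimulation, and no group lacked these factors. The comparisons were TNF against no treatment within each genotype, and genotype with and without TNF.

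When a cytokine such as IL-6 binds its receptor, JAK kinases attached to the receptor phosphorylate STAT transcription factors, which enter the nucleus and switch on target genes. Among those targets are genes that turn the signal down or carry it on. SOCS1, SOCS2, SOCS3 and CISH bind active receptors or JAKs and dampen signalling, while the PIM kinases are serine/threonine kinases that promote survival and growth of blood cells. IL-6 and IL-11 act through the shared receptor chain gp130 and mainly STAT3, whereas Flt3 ligand and stem cell factor act on receptor tyrosine kinases.

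The clearest change among these genes was a fall of Pim2 with TNF in both genotypes, 2.37-fold in wild type and 2.08-fold on labelled-mutant arrays. Pim1 fell by a smaller amount, 0.31 on the log2 scale in each genotype, and Socs3 fell when both genotypes were averaged. None of the 10 genes passed as higher. In these bulk samples fewer cells of a type and less RNA per cell cannot be told apart, and granulocyte markers also fell with TNF (12 of 14 in the average over genotype). The STAT genes Stat3, Stat5a and Stat5b did not pass in any comparison by their brightest probe sets. None of the 10 passed for genotype or for a difference between the TNF responses. Cish was lower on every TNF-treated array labelled mutant than on every TNF-treated wild-type array, as were 6.79% of all genes.

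In numbers, 2 of 10 genes passed for TNF in wild type, both lower (limma, adjusted p under 0.05 over 18193 genes), where 2.33% of all genes passed as lower, 2.69% as higher and 5.02% in either direction. The same count, 2 of 10, passed as lower on labelled-mutant arrays, against 1.86% of all genes as lower, 2.45% as higher and 4.31% in either direction. Averaged over genotype 3 of 10 passed as lower, against 6.32% lower, 5.81% higher and 12.1% in either direction. The median log2 difference of the 10 genes was -0.10 in wild type and -0.20 on labelled-mutant arrays, beside -0.03 for all genes in each. The comparisons of both genotypes with TNF share no array. The spread of each gene was estimated once from all 12 arrays, however, so the 2 sets of calls are not fully independent. The arrays of the compared groups did not overlap for 3 of the 10 genes in wild type, all lower (11.7% of all genes were lower without overlap), and for 4 on labelled-mutant arrays, all lower (15.8% of all genes).

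**Figure D1:**
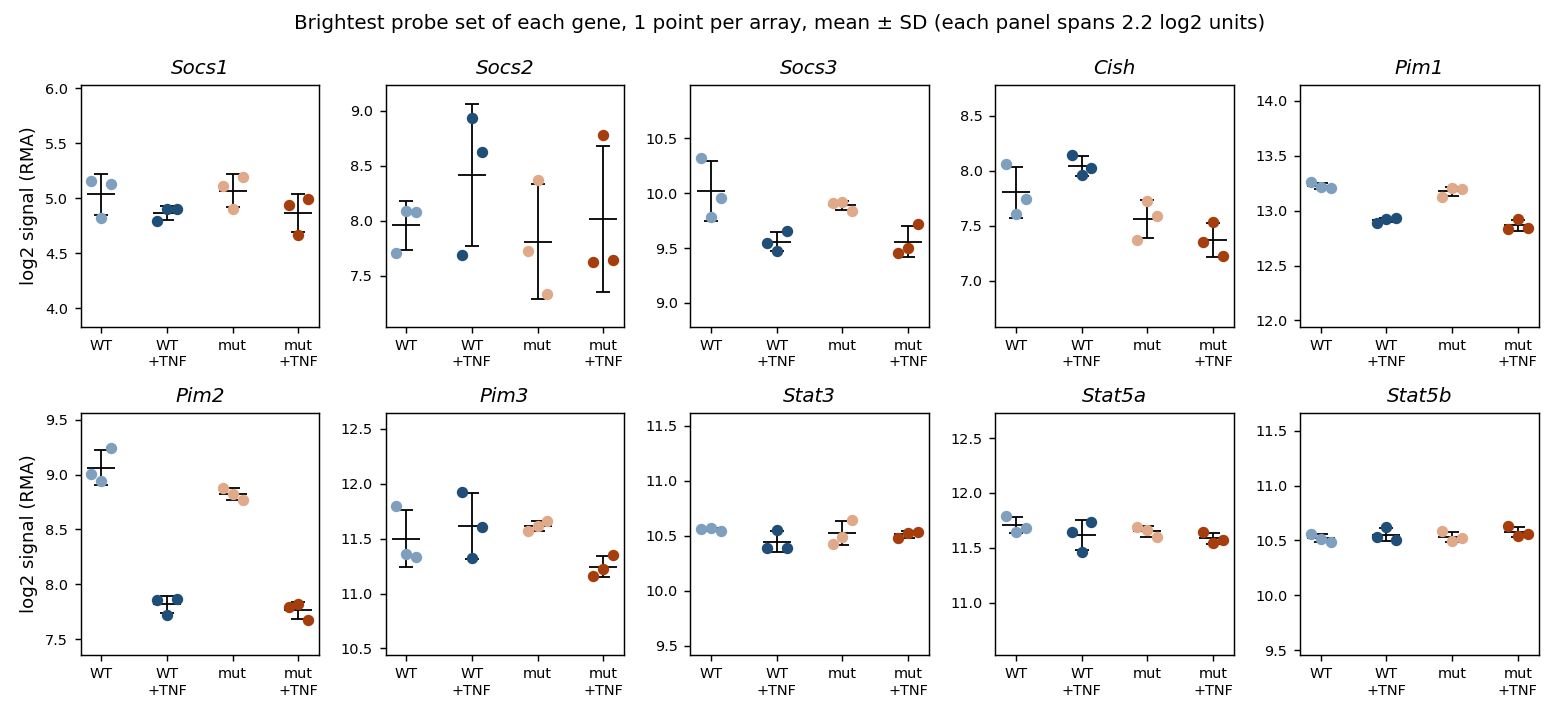
Log2 signal of the brightest probe set of each gene (y axis, 2.2 log2 units in every panel) in the 4 groups (x axis; WT, wild type; mut, labelled mutant), with 1 point per array and black bars for mean and SD of 3 arrays. Pim2 sat between 8.77 and 9.24 without TNF and between 7.68 and 7.86 with it, Socs2 spread over 1.60 log2 units within and between groups, and the STAT panels were nearly flat.

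The labels were checked before the comparisons. Fancc, the targeted gene, was not lower on labelled-mutant arrays, where its brightest probe set read 8.73 to 9.16 against 8.22 to 8.65 on the wild-type arrays (log2), and where that probe set lies relative to the disruption is not known here. On untreated wild-type arrays 8 of 9 measured stem and progenitor markers, among them Kit, Cd34 and Flt3, read above the median of all values (6.02). So did 13 of 14 granulocyte markers, 12 of 13 of monocytes, macrophages and dendritic cells, 6 of 6 of megakaryocytes and 7 of 10 of mast cells, basophils and eosinophils, so this level does not set the sorted type apart from maturing myeloid cells after 24 h of culture. Fewer markers of B cells (3 of 8), erythroid cells (1 of 6), stromal and endothelial cells (1 of 8) and T and NK cells (0 of 7) did. Ly6a, the gene of Sca-1, was not analysed here. The sex-linked transcripts Xist and Eif2s3y differed between replicates. Xist read 5.06 to 5.47 on untreated wild-type replicates 1 and 2 and untreated labelled-mutant replicate 1, and at least 12.04 on the other 9 arrays, and Eif2s3y read 4.16 on untreated labelled-mutant replicate 2, 3.79 on treated wild-type replicate 3 and at least 10.46 elsewhere. Every array with low Xist was untreated, so these transcripts were not balanced between untreated and treated groups. Arrays low in neither transcript carried both, as a sample from mice of both sexes would. The labels do not say whether replicates were separate mice or pools, and p-values measure only the spread between these samples.

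Pim1 and Pim2, the kinase genes that fell in both genotypes, are shown with the 250 bases before their annotated starts (RefSeq, GRCm38.p6), because they moved together. The windows are chr17:29490535-29490784 for Pim1 and chrX:7878056-7878305 for Pim2, both on the plus strand. Pim1 has another annotated start, with its window at chr17:29492835-29493084, and the window of the first start along the chromosome is the one shown. For Socs3 the 30 bases around a match to the STAT motif are given, at chr11:117969501-117969530 on the minus strand, with the match in capitals.
Pim1: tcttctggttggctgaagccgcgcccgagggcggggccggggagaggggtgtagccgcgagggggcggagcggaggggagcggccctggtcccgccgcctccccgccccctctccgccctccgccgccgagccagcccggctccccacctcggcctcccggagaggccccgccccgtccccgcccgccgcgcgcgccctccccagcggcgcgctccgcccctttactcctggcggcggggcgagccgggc
Pim2: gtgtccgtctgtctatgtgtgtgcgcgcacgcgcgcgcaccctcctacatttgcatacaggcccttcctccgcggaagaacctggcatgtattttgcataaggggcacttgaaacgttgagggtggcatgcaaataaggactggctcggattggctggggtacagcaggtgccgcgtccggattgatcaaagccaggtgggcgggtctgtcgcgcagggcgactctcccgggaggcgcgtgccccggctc
Socs3: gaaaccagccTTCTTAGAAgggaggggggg

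These windows were searched on both strands for the STAT motif TTCNNNGAA, which reads the same on either strand, and for an NF-kB motif, GGG followed by any 2 bases and TTTCC. Of the 10 genes, 9 had a window in the RefSeq table, with 12 windows in all. The STAT motif was found in 1 of the 12 windows, that of Socs3, at positions -154 to -146 from the start, and 7.02% of all 32851 windows of this length held it. The NF-kB motif was found in 0 of the 12 windows and in 1.41% of all windows. The GC content was 82.4% in the Pim1 window shown, 48.0% in the other Pim1 window and 62.0% in the Pim2 window. A match is a description of letters and says nothing about binding in these cells.

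Pim2 encodes a kinase that supports survival of blood cells and acts on protein synthesis. It read 9.01, 8.94 and 9.24 on untreated wild-type arrays and 7.86, 7.73 and 7.86 on those given TNF (log2 signal). Every treated array was below every untreated one. The log2 difference was -1.24 (SE 0.09, 95% interval -1.45 to -1.04, limma adjusted p = 3.81e-05), so treated cells had 42.2% of the untreated signal. On labelled-mutant arrays Pim2 read 8.88, 8.82 and 8.77 without TNF and 7.79, 7.82 and 7.68 with it, again without overlap. There the log2 difference was -1.06 (SE 0.09, 95% interval -1.26 to -0.86, limma adjusted p = 0.000109). The fall was 0.19 smaller than in wild type (95% interval -0.10 to 0.47), and that difference did not pass. By p-value Pim2 stood in place 18 of 18193 genes in wild type and 33 on labelled-mutant arrays. Pim2 lies on the X chromosome, and the 3 untreated arrays with low Xist read 9.01, 8.94 and 8.88 against 9.24, 8.82 and 8.77 on the others. With Xist and Eif2s3y levels as covariates the difference was -1.31 in wild type and -1.09 on labelled-mutant arrays, and both passed (limma adjusted p = 0.00152 and 0.0022).

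Pim1 encodes the related kinase first known as an integration site of leukaemia virus and is a standard target of STAT3 and STAT5. Its brightest probe set read 13.26, 13.21 and 13.21 on untreated wild-type arrays and 12.89, 12.92 and 12.93 on treated ones. On labelled-mutant arrays it read 13.13, 13.20 and 13.20 without TNF and 12.83, 12.92 and 12.84 with it. No treated array reached an untreated one in either genotype. The log2 difference was -0.31 in wild type (SE 0.06, 95% interval -0.45 to -0.17, limma adjusted p = 0.0173) and -0.31 on labelled-mutant arrays (SE 0.06, 95% interval -0.45 to -0.17, limma adjusted p = 0.0184). The treated signal was 80.6% of the untreated one in each genotype. The spread of Pim1 between replicates was among the smallest on the array, with a pooled SD of 0.037 against 0.153 for the median gene. The 2nd Pim1 probe set was dim, at 5.13, 5.49 and 5.10 without TNF and 4.83, 4.86 and 4.84 with it in wild type, and at 5.16, 5.05 and 5.26 against 5.31, 5.03 and 5.09 on labelled-mutant arrays. It did not pass in either genotype, with log2 differences of -0.39 and -0.01.

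The separate Pim1 calls depended on single arrays, while the average over genotype did not. In wild type the call was lost without untreated replicate 3 (limma adjusted p = 0.0516), treated replicate 1 (0.0511) or treated replicate 3 (0.0558), and on labelled-mutant arrays when untreated replicate 2 (0.0775), untreated replicate 3 (0.0664), treated replicate 1 (0.0699) or treated replicate 3 (0.0727) was left out. It was also lost with the Xist and Eif2s3y covariates (0.0861 and 0.0875), when only the groups compared were fitted (0.109 and 0.0679), and, on labelled-mutant arrays, with the mean of the probe sets (0.28). Averaged over genotype Pim1 fell by 0.31 (SE 0.04, limma adjusted p = 0.00107) and passed in all 21 alternatives, with adjusted p up to 0.0181.

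Pim3, the third kinase of the family, read 11.80, 11.36 and 11.33 on untreated wild-type arrays and 11.92, 11.32 and 11.60 on treated ones, which overlapped. On labelled-mutant arrays it read 11.57, 11.61 and 11.66 without TNF and 11.16, 11.22 and 11.35 with it, and here no arrays overlapped. The log2 difference was 0.12 in wild type (95% interval -0.22 to 0.46) and -0.37 on labelled-mutant arrays (95% interval -0.71 to -0.03), and neither passed (limma adjusted p = 0.759 and 0.252). The difference between these effects was -0.49 (95% interval -0.98 to -0.0039) and missed the threshold (limma adjusted p = 1.00). The other Pim3 probe sets gave -0.29 and -0.13 for this difference.

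**Figure D2:**
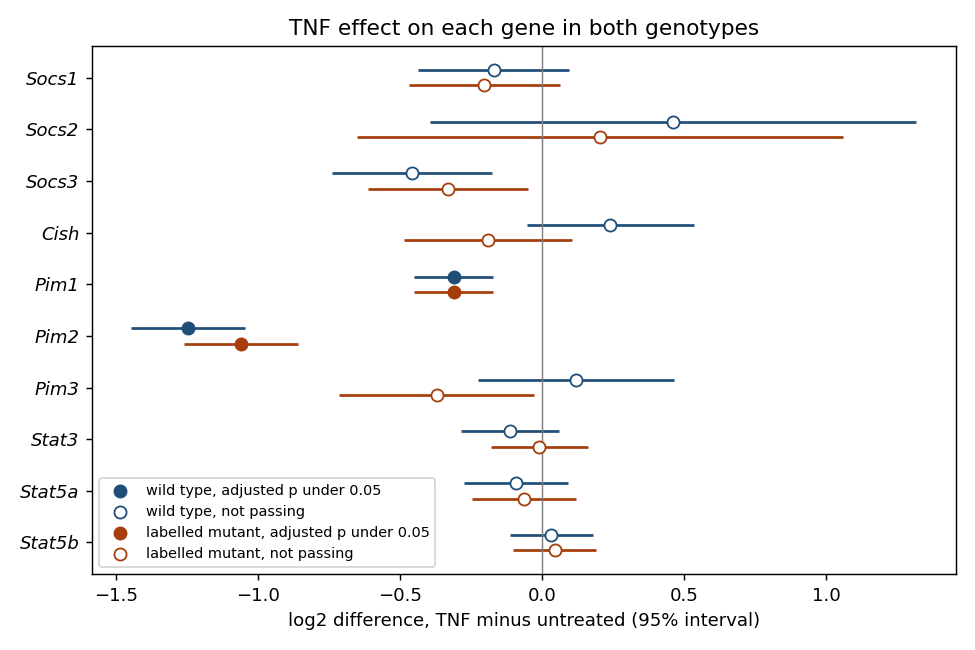
Log2 difference between TNF-treated and untreated arrays for each gene (x axis) in wild type (blue) and on labelled-mutant arrays (orange), with 95% intervals from the fit over 12 arrays. Filled points passed at adjusted p under 0.05: these are Pim1 and Pim2 in each genotype, and the intervals of Socs2 are the widest.

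Socs3 is the main inhibitor of signalling through gp130. Its brightest probe set read 10.32, 9.78 and 9.95 on untreated wild-type arrays and 9.54, 9.48 and 9.66 on treated ones. On labelled-mutant arrays it read 9.91, 9.92 and 9.84 without TNF and 9.45, 9.50 and 9.72 with it. All treated arrays lay below all untreated arrays of the same genotype. The log2 difference was -0.46 in wild type (SE 0.13, 95% interval -0.74 to -0.18) and -0.33 on labelled-mutant arrays (SE 0.13, 95% interval -0.61 to -0.05), and neither passed (limma adjusted p = 0.0702 and 0.207). Averaged over genotype Socs3 fell by 0.39 on the log2 scale (SE 0.09, limma adjusted p = 0.0162), to 76.0% of the untreated signal. The Socs3 call in the average was lost only with the Xist and Eif2s3y covariates among 21 alternatives (log2 difference -0.35, adjusted p = 0.146). In wild type Socs3 passed with arrays centred on their medians (0.0219), the mean of its probe sets (0.0325), the filter on low values (0.0495) and without untreated replicate 2 (0.0341). The other Socs3 probe sets gave -0.38 and -0.33 in the average; when all 45037 probe sets were tested the former passed (limma adjusted p = 0.0146) and the latter did not (0.225). Over the 12 arrays, which all these probe sets share, Pearson's r with the brightest was 0.985 for the former and 0.305 for the latter. Treated and untreated arrays of the latter overlapped in both genotypes.

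Socs1, which inhibits JAKs directly and is known as a brake on interferon signalling, was near the floor of the array. Its single probe set read 5.15, 4.82 and 5.13 on untreated and 4.79, 4.90 and 4.90 on treated wild-type arrays, and 5.11, 4.91 and 5.19 against 4.93, 4.67 and 4.99 on labelled-mutant arrays. These values overlapped in both genotypes, and fold changes are compressed at this level. The log2 difference averaged over genotype was -0.19 (95% interval -0.37 to 0.00) and did not pass (limma adjusted p = 0.193).

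Socs2, an inhibitor best known for limiting growth hormone signals, had the largest spread of the 10 genes. Its brightest probe set read 7.70, 8.09 and 8.08 on untreated and 7.69, 8.94 and 8.63 on treated wild-type arrays. On labelled-mutant arrays it read 7.72, 8.37 and 7.34 without TNF and 7.62, 8.78 and 7.64 with it. The values above 8.3 came from treated wild-type replicates 2 and 3 and from replicate 2 of both labelled-mutant groups, so high and low arrays occurred within single groups. The pooled SD within groups was 0.54, higher than for 97.8% of genes. The log2 difference was 0.46 in wild type (95% interval -0.39 to 1.32) and 0.20 on labelled-mutant arrays (95% interval -0.65 to 1.06), and neither passed. The next Socs2 probe set, dimmer at 4.74 to 6.04, varied in the same way over the 12 arrays (Pearson's r = 0.801, over arrays that both probe sets share), and the other 4 read at most 4.19.

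**Figure D3:**
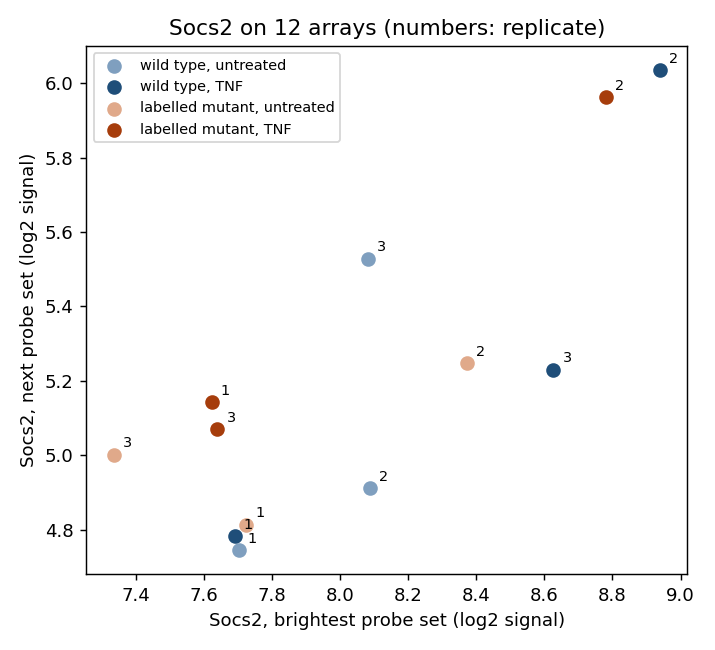
Log2 signal of the brightest Socs2 probe set (x axis) against the next one (y axis) on the 12 arrays, coloured by group and numbered by replicate. Replicate 2 of both TNF-treated groups stands highest on both axes, at 8.94 and 8.78 on the x axis, and arrays of 1 group lie far apart.

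Cish, a STAT5 target whose product is an inhibitor of the SOCS family, had the largest genotype difference of the 10 genes. It read 8.06, 7.61 and 7.74 on untreated and 8.14, 7.96 and 8.02 on treated wild-type arrays. On labelled-mutant arrays it read 7.37, 7.72 and 7.59 without TNF and 7.35, 7.53 and 7.22 with it. With TNF the genotypes did not overlap, while without TNF they did. In the comparison with TNF 6.79% of all genes were lower without overlap. The log2 difference of labelled-mutant arrays from wild type was -0.67 with TNF (SE 0.13, 95% interval -0.97 to -0.38) and -0.24 without it (95% interval -0.54 to 0.05). The former held place 32 of 18193 genes by p-value (limma unadjusted p = 0.000403) but missed the threshold after adjustment (limma adjusted p = 0.229), where 0.00550% of genes passed in either direction. Over 22 alternatives the value ran from -0.76 to -0.60 and the adjusted p from 0.0866 to 0.664. These comparisons share arrays. The TNF effect on Cish was 0.24 in wild type and -0.19 on labelled-mutant arrays; the difference between these effects was -0.43 (95% interval -0.85 to -0.01) and did not pass (limma adjusted p = 1.00). At an unadjusted p under 0.05 this difference counted 2 of the 10 genes, Cish and Pim3, and 2.90% of all genes.

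Stat3, Stat5a and Stat5b, the transcription factors that carry the signal, did not pass by their brightest probe sets in any comparison. Stat3 read 10.56, 10.57 and 10.54 on untreated and 10.39, 10.56 and 10.39 on treated wild-type arrays, and 10.43, 10.49 and 10.64 against 10.48, 10.53 and 10.53 on labelled-mutant arrays. Stat5a read 11.65 to 11.79 on untreated and 11.47 to 11.73 on treated wild-type arrays, and 11.59 to 11.69 against 11.54 to 11.64 on labelled-mutant arrays. Stat5b stayed within 0.14 log2 units over all 12 arrays, from 10.49 to 10.63. The 95% intervals of the TNF effect averaged over genotype were -0.18 to 0.06 for Stat3, -0.21 to 0.05 for Stat5a and -0.07 to 0.14 for Stat5b. STAT phosphorylation was not measured.

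The probe sets of Stat5b disagreed. The dimmer one read 7.38, 7.10 and 7.25 on untreated and 6.27 to 7.12 on treated wild-type arrays, and 7.32, 7.47 and 7.60 against 7.23, 6.94 and 6.83 on labelled-mutant arrays. Its log2 difference averaged over genotype was -0.46 (SE 0.14) and did not pass over all 45037 probe sets (limma adjusted p = 0.0849), while the brightest gave 0.04. With the mean of both probe sets Stat5b read -0.21 in this average. The other 3 Stat3 probe sets and the other Stat5a probe set did not pass either. Of the 25 member probe sets, 2 passed for TNF in wild type, 2 on labelled-mutant arrays and 4 in the average, when every probe set was tested (2.58%, 2.09% and 7.41% of all probe sets in either direction).

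Without TNF 0 of the 10 genes passed for genotype in limma (0.00550% of all genes did), and 1, Pim2, had an unadjusted p under 0.05 (4.12% of all genes). Pim2 was lower on labelled-mutant arrays by a log2 difference of -0.24 (95% interval -0.44 to -0.04, limma adjusted p = 0.992), and its untreated arrays did not overlap between genotypes. Pim1 had a difference of -0.05, also without overlap, so 2 of the 10 genes were lower without overlap, beside 4.28% of all genes. With TNF 0 of the 10 passed and 2, Cish and Pim3, had an unadjusted p under 0.05 (5.60% of all genes). The single gene without overlap was Cish, beside 6.79% of all genes that were lower without overlap.

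Other genes of the pathway, grouped by role, were compared in the TNF effect averaged over genotype. Of the 4 other SOCS genes Socs5 rose by 0.50 (SE 0.10, limma adjusted p = 0.00988) and Socs4 by 0.22 (SE 0.06, adjusted p = 0.0478), and the median was 0.17 beside -0.03 for all genes. Socs4 passed in only 2 of 12 fits that left out 1 array (adjusted p up to 0.103) and did not pass with arrays centred on their medians (0.165) or with the Xist and Eif2s3y covariates (0.0631). Of the 4 JAK kinases Jak2 rose by 0.80 (SE 0.08, adjusted p = 7.52e-05), with 10.60 to 10.90 on untreated and 11.47 to 11.70 on treated wild-type arrays. Tyk2 fell by 0.32 (SE 0.09, adjusted p = 0.0449), but passed in only 2 of 12 fits that left out 1 array (adjusted p up to 0.0996) and not with those covariates (0.109). None of 3 other STAT genes measured passed, the smallest p being that of Stat2 (0.17, limma adjusted p = 0.406).

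Both chains of the IL-6 receptor fell, 2 of the 4 measured receptors for the culture cytokines. Il6st, which encodes gp130, read 10.65 to 10.86 on untreated and 10.01 to 10.27 on treated wild-type arrays, and 10.75 to 11.11 against 10.28 to 10.43 on labelled-mutant arrays. Its log2 difference averaged over genotype was -0.58 (SE 0.08, limma adjusted p = 0.000705). Il6ra, the chain that binds IL-6, fell by 0.66 (SE 0.13, adjusted p = 0.00606). Kit and Flt3, the receptors for stem cell factor and Flt3 ligand, did not pass, with differences of 0.06 and 0.21. Of 23 other receptors that use JAK kinases 3 rose and 5 fell, led by Ghr, the growth hormone receptor (1.52, SE 0.23), Il27ra, a receptor chain for IL-27 (1.46, SE 0.11), Il13ra1, a receptor chain for IL-13 (-1.49, SE 0.24), Lifr, the receptor for leukaemia inhibitory factor (-0.96, SE 0.19), and Il2rb, a chain shared by the IL-2 and IL-15 receptors (-0.67, SE 0.14). These 5 genes passed without any single array, and Lifr did not pass with the Xist and Eif2s3y covariates (adjusted p = 0.11).

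Among 15 other inhibitors of the pathway, 1 rose, the interferon-induced Usp18 (0.63, SE 0.14, limma adjusted p = 0.0162; 0.0821 with the Xist and Eif2s3y covariates). Of 22 other known targets of STAT3 or STAT5, 3 rose and 7 fell, with a median of -0.05. They moved in both directions: Saa3, an acute phase gene, rose by 2.34 (SE 0.24), while the chemokine receptor gene Ccr1 (-3.16, SE 0.22), Lrg1 (-2.40, SE 0.29), Id1, an inhibitor of helix-loop-helix factors (-1.63, SE 0.25), and Timp1, an inhibitor of metalloproteinases (-1.37, SE 0.17), fell. Of 12 ligands of the IL-6 and interferon families and related factors, 1 fell, Il10 (-1.13, SE 0.18, adjusted p = 0.00185), which read near the floor in all groups. For TNF averaged over genotype 5.81% of all genes passed as higher and 6.32% as lower.

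**Figure D4:**
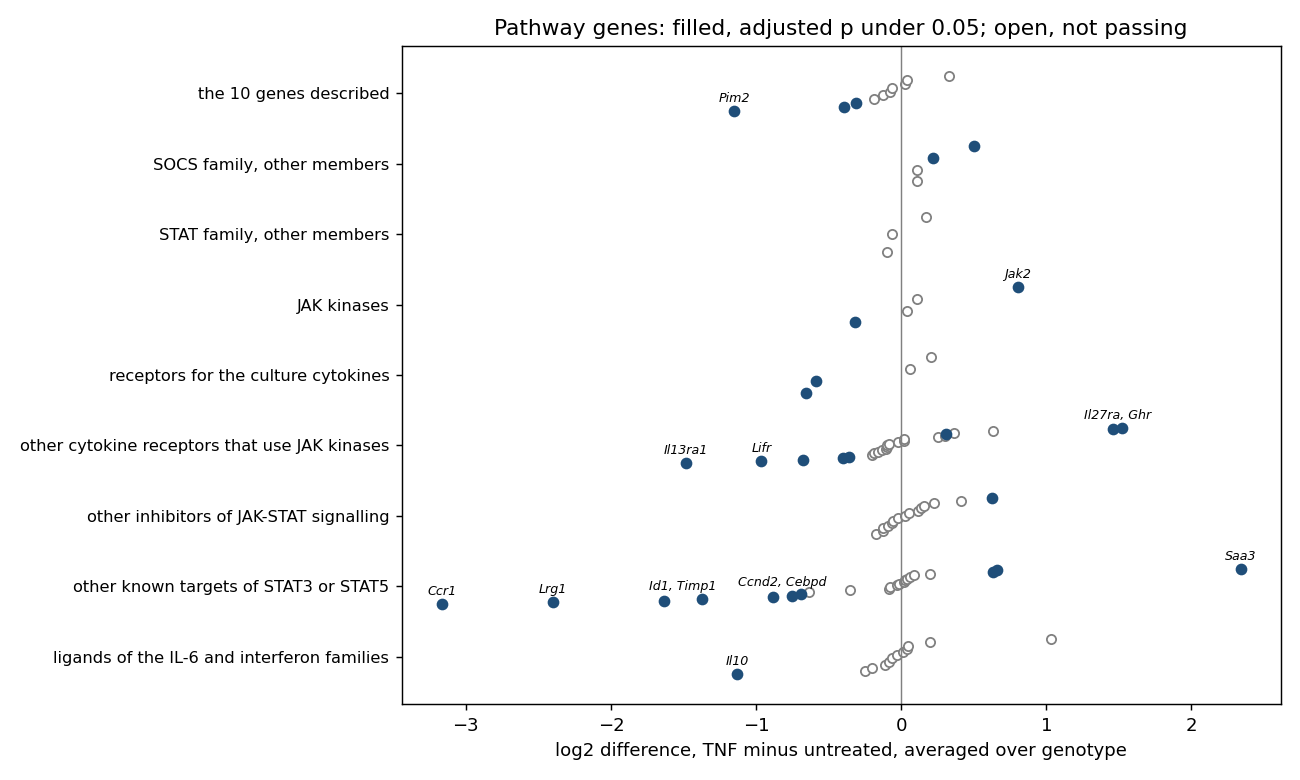
Log2 difference between TNF-treated and untreated arrays averaged over genotype (x axis) for the 10 genes described and 8 lists of other pathway genes (rows), with 1 point per gene. Filled points passed at adjusted p under 0.05, and names are given beyond 0.75. Jak2 lies at 0.80, Pim2 at -1.15, and the known STAT targets reach from -3.16 to 2.34.

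The genes whose pattern over the 12 arrays was most like that of Pim2 were Endod1 (Pearson's r = 0.979), Rtn4rl2 (0.978), Cxcr2 (0.968), Pim1 (0.966) and Slc35b2 (0.965). For Pim1 they were Endod1 (0.984), Cxcr2 (0.978), Sirt3 (0.967), Cdh17 (0.967) and Pim2 (0.966). These values describe 12 shared arrays. All of these genes were lower with TNF in the average over genotype, which follows largely from choosing them by likeness to genes that fell.

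Markers of maturing cells moved with TNF beside Pim2, Pim1 and Socs3. Of 14 granulocyte markers 12 fell and none rose in the average over genotype. Their summed signal was 15.70 to 16.02 on untreated and 14.19 to 14.83 on treated wild-type arrays, and 15.97 to 16.22 against 14.05 to 15.27 on labelled-mutant arrays (log2 of the sum). Among 13 markers of monocytes, macrophages and dendritic cells, 5 fell and 2 rose, with summed signals of 14.72 to 15.04 and 14.36 to 14.61 in wild type and 14.87 to 15.31 and 14.30 to 15.22 on labelled-mutant arrays. Among 10 markers of mast cells, basophils and eosinophils, 3 fell. Their summed signals were 12.14 to 12.61 and 10.59 to 11.24 in wild type. On labelled-mutant arrays they were 11.67 to 12.29 and 10.55 to 11.70. Of 9 stem and progenitor markers 1 rose, Procr, and none fell. The summed stem and progenitor signal was 14.12 to 14.34 on untreated and 14.35 to 14.36 on treated wild-type arrays. On labelled-mutant arrays it was 13.88 to 14.13 without TNF and 14.13 to 14.31 with it. The part of these markers in the falls of Pim2, Pim1 and Socs3 was not tested.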

How the data were processed

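Expression was measured on 12 Affymetrix arrays. The labels' protocols give 5 to 15 ng of RNA and an amplification step. The authors deposited log2 signals per probe set, which the submitters' processing notes attribute to RMA (version not stated there). Base 2 was inferred from the range of the values. The platform annotation gave 1 symbol to 34945 probe sets that are no controls, and each of 18193 genes was represented by its brightest one.

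The model was limma's (3.58.1, under R 4.3.3), a linear fit of 4 group means to the 12 arrays, with empirical Bayes moderation, 2-sided tests and Benjamini-Hochberg adjustment over all genes (threshold 0.05). The scripts were tested on simulated data. The members, lists, tests and alternatives were chosen with earlier results of these data known, so a pattern already seen in them is no independent support. All 10 members are named; of each pathway list, up to 5 passing genes by size of the average TNF effect, or the gene with the smallest p. Likeness is Pearson's r over 12 arrays, 5 genes for the passing members with the highest and the lowest average TNF effect. The number of arrays limits the precision. RMA equalises array distributions, so a shift of all genes could not be seen.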

Additional observations from a re-analysis of the deposited data

How the results depend on the processing

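Results were recomputed with array medians centred, cyclic loess, array weights (statmod 1.5.0), trend and robust moderation, Xist and Eif2s3y covariates, a low-value filter, averaged probe sets, every probe set tested, only the groups compared, a replicate block, and each array left out. Pim2 passed in all of them in each genotype, with adjusted p up to 0.00428 in wild type and 0.0022 on labelled-mutant arrays. The number of members passing for TNF in wild type, 2 in the reported fit, was 1 with the covariates, 1 with only the groups compared and 1 to 3 when an array was left out. It was 3, with Socs3 added, after centring, with the low-value filter, with averaged probe sets and without untreated wild-type replicate 2. On labelled-mutant arrays, also 2, it was 1 with the mean of probe sets, 1 with the covariates, 1 with only the groups compared, and 1 to 2 without an array. No member passed for genotype or for the difference of the TNF effects under any alternative. With the replicate block the counts were 2, 2 and 3 for TNF in wild type, on labelled-mutant arrays and in the average. The block changed no member's call. Of 18 same-number pairs of arrays, 7 had deviations correlated above 0.1 (range -0.16 to 0.28). Their median was 0.046, against -0.025 for other pairs, and 10 of 12 arrays correlated best with their own number. Whether equal numbers mark paired samples is not known here, and the reported fit did not pair them. Socs1 was removed by the filter on low values. Centring or cyclic loess changed the sign of no passing member. Over all genes, the 913 calls for TNF in wild type became 410 with the covariates, 523 with only the groups compared and 474 to 957 without an array. The 784 calls on labelled-mutant arrays became 452 with the covariates and 444 to 951 without an array, and the 2207 in the average became 1270 with the covariates. Centring moved the share of higher calls in the average TNF effect from 47.9% to 37.5%, and cyclic loess to 55.4%.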

Other observations

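Further STAT3 or STAT5 targets passed in the average TNF effect and are named here after their values were seen. Ccnd2, which encodes cyclin D2, fell by 0.89 on the log2 scale (SE 0.06) and read 12.83 to 12.98 on untreated and 11.92 to 11.99 on treated wild-type arrays. Id2 fell by 0.69 (SE 0.12) and Cebpd by 0.75 (SE 0.21), the largest SE of these further targets. Fits without single arrays or with the Xist and Eif2s3y covariates are not given for them. Bcl3, a partner of NF-kB that is also a STAT3 target, rose by 0.66 (SE 0.08), and the immediate early gene Junb rose by 0.63 (SE 0.08). The survival genes Mcl1 (0.03) and Bcl2l1 (-0.35) and the growth regulators Myc (-0.07) and Ccnd1 (0.06) did not pass (limma adjusted p from 0.0608 to 0.84). Targets of the same factors lay on both sides of 0.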
